A study of Mus musculus with 28 samples.

Results

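The genes described here encode the receptors through which cortical neurons receive glutamate and GABA. They were chosen by symbol: protein-coding genes whose names mark AMPA (Gria), delta (Grid), kainate (Grik), NMDA (Grin1 to Grin3) or metabotropic glutamate (Grm) receptor subunits, or GABA-A (Gabr) or GABA-B (Gabbr1, Gabbr2) receptor subunits. 40 such genes were present in both deposited tables, of 14888 genes that the tables share, and the rule reads the symbol and no measured value. 39 of the 40 are receptor subunits, and Grid2ip, which encodes a partner protein and not a channel, matched by its symbol alone. Another 8 annotated genes of these families (Gabra6, Gabre, Gabrp, Gabrr1, Gabrr2, Gabrr3, Grin3b and Grm6) were not analysed here.

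The RNA came from frontal cortex of 28 male C57Bl/6 mice, taken from 1 hemisphere of each, and was sequenced as ribosomal-RNA-depleted, strand-specific libraries. The CSS group held 8 mice with chronic social stress: they were kept isolated for 7 weeks and put through 2 confrontations a day during the closing 20 days. They were compared with 8 CSS control mice, and mice of both groups were 21 weeks old. The T2D group held 6 mice modelling type 2 diabetes, given streptozotocin at 75 mg/kg, a toxin of insulin-producing cells, and fed for 21 weeks on food that drew 43.2% of its calories from fat. They were compared with 6 age-matched T2D control mice, and mice of both groups were 30 or 31 weeks old. The stress model joins isolation to confrontation and the diabetes model joins a toxin to a diet, so the 2 components of each cannot be told apart. The labels say little of how the controls were kept.

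Fast excitation in the cortex runs mainly through AMPA receptors, whose GluA2 subunit, made from Gria2, sets how much calcium they pass. NMDA receptors pair the obligatory GluN1 subunit with GluN2 or GluN3 subunits and act as detectors of coincident activity, while metabotropic glutamate receptors signal through G proteins. GABA-A receptors are chloride channels built of alpha, beta and gamma or other subunits, and GABA-B receptors are obligatory heterodimers coupled to G proteins.

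The promoters of Gria2, Gabra5 and Grm8 are shown because these members had the smallest p-values within the CSS comparison (Gabra5, then Gria2) and the T2D comparison (Grm8). Each sequence is from RefSeq (GRCm38.p6) and ends at the base before the gene's start, or for Grm8 at the base before the annotated gene. All 3 genes lie on the minus strand, and capitals mark the one motif match. Gria2 was taken from chr3:80802836-80803085, Gabra5 from chr7:57510060-57510309 and Grm8 from chr6:28135179-28135396.
Gria2: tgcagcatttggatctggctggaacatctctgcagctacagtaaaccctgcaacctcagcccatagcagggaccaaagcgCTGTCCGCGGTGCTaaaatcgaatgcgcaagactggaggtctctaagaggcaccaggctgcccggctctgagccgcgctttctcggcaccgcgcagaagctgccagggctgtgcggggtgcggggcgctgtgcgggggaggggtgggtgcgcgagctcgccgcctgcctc
Gabra5: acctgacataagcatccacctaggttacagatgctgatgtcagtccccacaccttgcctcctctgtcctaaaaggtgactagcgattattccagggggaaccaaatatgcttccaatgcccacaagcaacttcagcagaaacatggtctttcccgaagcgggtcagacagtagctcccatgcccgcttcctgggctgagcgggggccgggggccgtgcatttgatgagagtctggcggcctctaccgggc
Grm8: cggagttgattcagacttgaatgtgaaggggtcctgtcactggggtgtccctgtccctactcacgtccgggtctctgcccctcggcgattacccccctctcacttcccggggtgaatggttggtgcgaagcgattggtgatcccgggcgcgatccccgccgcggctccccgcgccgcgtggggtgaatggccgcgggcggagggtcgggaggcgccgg
RefSeq entries were found for 25 of the 40 members, and Grin3a had none. The capitals in Gria2 match the core of RE1, the element bound by the neuronal gene repressor REST, read on the opposite strand from 170 to 157 bases before the start. RE1 was added after this sequence had been seen. The letters searched were AGCACCNNGGACAG, on both strands, and 15 of 32851 promoter windows of 250 bases held them (0.0457%). Among the members with an entry, Gria2 alone held this match. The cAMP response element TGACGTCA, found in 1.55% of all windows, was in none of the 25 members' windows. Its core TGACG, which lies inside TGACGTCA and was found in 17.8% of all windows, was in those of Grin1 and Grm8. AGAACA, a glucocorticoid receptor hexamer found in 16.1% of windows, was in those of Gabrb2 and Grm8. The Grm8 matches lay outside the printed bases, among its 3 entries. GC content was 64.8% for Gria2, 56.4% for Gabra5 and 68.3% for Grm8.

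The libraries held 15.2 to 21.9 M (mega) estimated counts in CSS cortex and 14.3 to 37.5 M in CSS control cortex, then 14.3 to 22.7 M in T2D cortex and 12.1 to 21.6 M in T2D control cortex. Summed astrocyte markers were higher in CSS cortex (4283 to 5132 CPM, estimated counts per 1 M of scaled library total) than in CSS control cortex (3855 to 4471 CPM, two-sided exact permutation test, adjusted p = 0.0199 over 32 such comparisons). Slc1a2 alone made up 3043 ± 289 of a mean sum of 4625 CPM in CSS cortex. In CSS control cortex it made up 2611 ± 174 of 4120 CPM (SD, n = 8 each). The median log2 fold change of the 10 astrocyte markers was 0.17, with 2 of the 10 called. The summed level of 7 oligodendrocyte precursor markers was also higher (444 ± 25.9 against 396 ± 19.3 CPM, SD, n = 8 each, exact permutation test, adjusted p = 0.0199), but the median log2 fold change of these markers was 0.0014, with 2 of the 7 called. Microglial markers were lower, at 191 to 374 CPM in CSS cortex and 359 to 413 CPM in CSS control cortex (exact permutation test, adjusted p = 0.0199). Excitatory neuron markers spanned 1746 to 2755 CPM in CSS cortex and 1932 to 2797 CPM in CSS control cortex, and 1429 to 2694 CPM in T2D cortex and 1869 to 2481 CPM in T2D control cortex. Inhibitory neuron markers spanned 844 to 1115 CPM in CSS cortex and 907 to 1218 CPM in CSS control cortex (exact permutation test, adjusted p = 0.703), with 2 of 12 called. They spanned 787 to 1502 CPM in T2D cortex and 735 to 1215 CPM in T2D control cortex (exact permutation test, adjusted p = 0.530). All 12 excitatory and all 12 inhibitory neuron markers were present in both tables. Striatal projection neuron markers varied widely, from 515 to 2648 CPM in T2D cortex and from 704 to 2344 CPM in T2D control cortex. In the CSS cohort these markers spanned 1331 to 2070 CPM in CSS cortex and 1501 to 2972 CPM in CSS control cortex. Their median log2 fold change in CSS was -0.25 (exact permutation test on the sums, adjusted p = 0.407). In whole tissue, fewer cells of a type and less RNA per cell cannot be told apart. The part of these markers in the members' values was not tested beyond the fits with regional markers given below. The titles also carry a code (C and a number) that the labels do not explain and that is spread unevenly between CSS and CSS control mice, so fits with that code as a block are given below.

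The 40 receptor genes together took 0.841% ± 0.0254 of the estimated counts in CSS cortex and 0.851% ± 0.0161 in CSS control cortex (SD, n = 8 each). They took 0.836% ± 0.0532 in T2D cortex and 0.838% ± 0.00764 in T2D control cortex (SD, n = 6 each). Levels between genes were compared as CPM per kilobase of merged exons (CPM per kb). On that scale Gabbr1, which encodes the ligand-binding GABA-B subunit, had the highest mean in CSS cortex, at 89.8 ± 2.88 CPM per kb, against 92.2 ± 3.84 in CSS control cortex. The AMPA subunit genes Gria1 and Gria2 came next in CSS cortex, at 72.9 ± 6.67 and 70.8 ± 1.86 CPM per kb, against 74.1 ± 5.34 and 76.0 ± 3.82 in CSS control cortex. The gap between Gria1 and Gria2 was smaller than both SDs in CSS control cortex. In CSS cortex it was smaller than the SD of Gria1 but not that of Gria2. In T2D cortex Gria1 and Gria2 stood at 72.8 ± 7.03 and 72.6 ± 8.11 CPM per kb. In T2D control cortex they stood at 65.5 ± 4.34 and 75.7 ± 4.69, a gap wider than either SD.

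At the low end on the same scale stood Grin2d, an NMDA subunit gene, at 1.01 CPM per kb in CSS cortex against 0.817 in CSS control cortex. Gabrq, the theta subunit gene, had 0.951 CPM per kb in CSS cortex against 1.096 in CSS control cortex. Grid2ip had the lowest level, 0.345 against 0.338 CPM per kb. Gabrq was also the most variable member, with a coefficient of variation of 61.4% in CSS, 71.5% in CSS control, 72.1% in T2D and 94.4% in T2D control cortex. Its estimated counts went as low as 15.1 in a CSS library and 13.96 in a T2D library, while Grin2b reached 46213 in a CSS control library. Dividing by the longest transcript in place of merged exons placed Gria2 (106.2 ± 2.80) above Gria1 (79.5 ± 7.27) in CSS cortex, with Gabbr1 still highest.

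**Figure D1:**
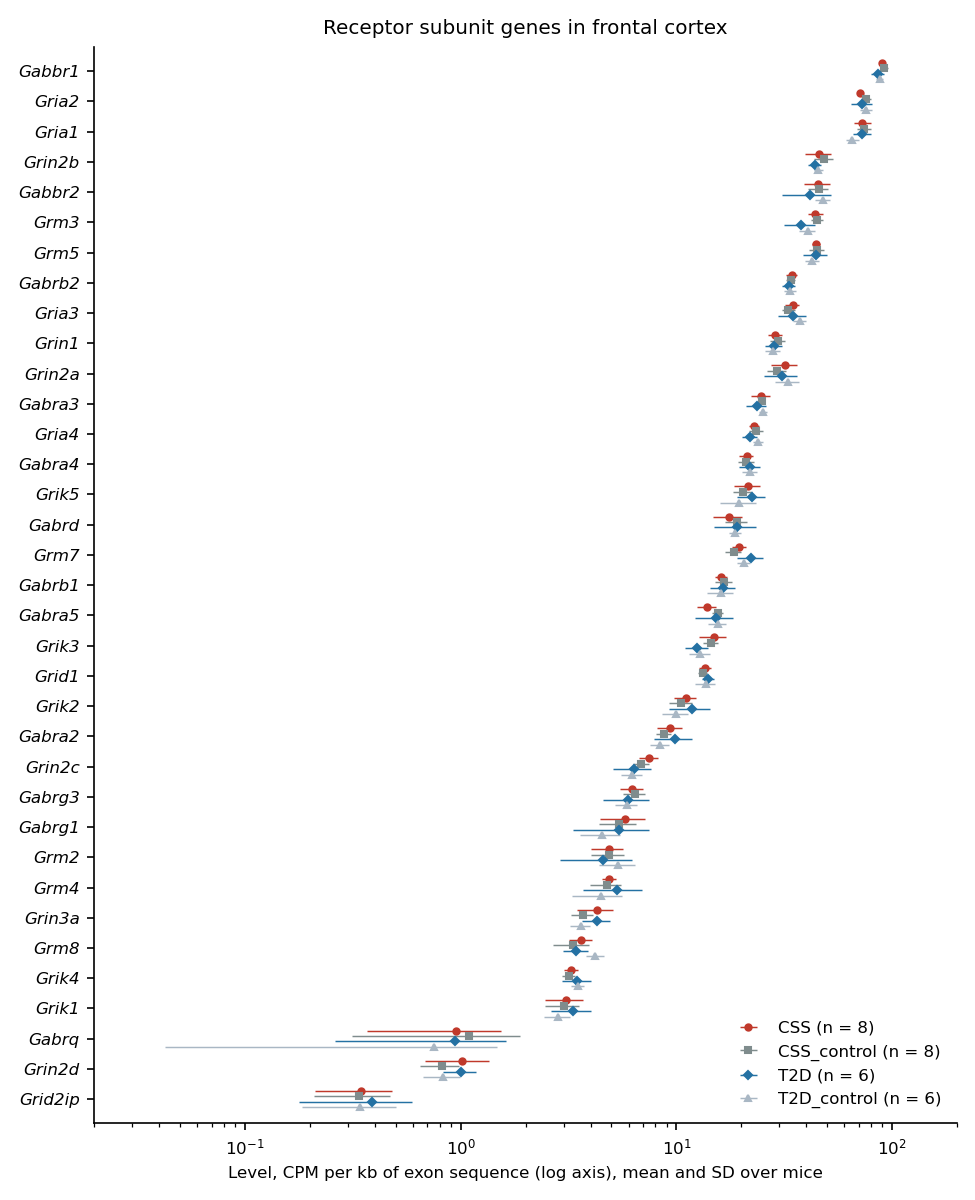
Mean level of 35 of the 40 receptor genes in CPM per kilobase of merged exons (log axis) with the SD between mice, by group (CSS, CSS control, T2D, T2D control). Gabbr1, Gria1 and Gria2 had the highest levels, and Grin2d, Gabrq and Grid2ip the lowest.

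Within a library, each subunit's share of its family can be read without comparing libraries. In the AMPA family, Gria1 made up 36.2% ± 2.49 of the summed CPM per kb in CSS cortex and 35.8% ± 1.68 in CSS control cortex. Gria2 made up 35.2% ± 1.41 in CSS cortex and 36.8% ± 1.06 in CSS control cortex. In the T2D cohort Gria1 took 36.0% ± 2.49 in T2D cortex and 32.4% ± 2.43 in T2D control cortex, with Gria2 at 35.9% ± 1.31 and 37.4% ± 1.63. Gria3 and Gria4 made the smaller shares in every group.

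Among NMDA subunits Grin2b, the GluN2B gene that prevails early in development, had the largest share per kb of merged exons, 38.3% ± 2.17 in CSS and 40.7% ± 3.07 in CSS control cortex. Grin2a, the GluN2A gene typical of mature synapses, followed with 26.7% ± 1.66 and 24.7% ± 2.31. Grin1, the obligatory GluN1 gene, made up 24.2% ± 1.16 in CSS and 24.9% ± 1.18 in CSS control cortex. This order depends on gene length: per kb of the longest transcript Grin1 led with 39.0% ± 1.44 in CSS and 40.1% ± 1.48 in CSS control cortex, and Grin2b had 28.2% ± 1.90 and 29.9% ± 2.55.

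Among kainate subunits Grik5 held 39.8% ± 1.79 of the sum in CSS and 39.5% ± 2.55 in CSS control cortex. It held 41.9% ± 4.09 in T2D and 40.002% ± 3.37 in T2D control cortex. Of the GABA-B pair, Gabbr1 held 66.6% ± 3.10 in CSS and 66.9% ± 1.71 in CSS control cortex, and 67.8% ± 5.30 in T2D and 64.7% ± 2.57 in T2D control cortex. Among the shares given per kb of merged exons, those of Gria2 in CSS and of Gria1 and Gabbr1 in T2D differed from their controls by more than 1 SD of the control mice, and the others by less. No test was run on the shares.

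**Figure D2:**
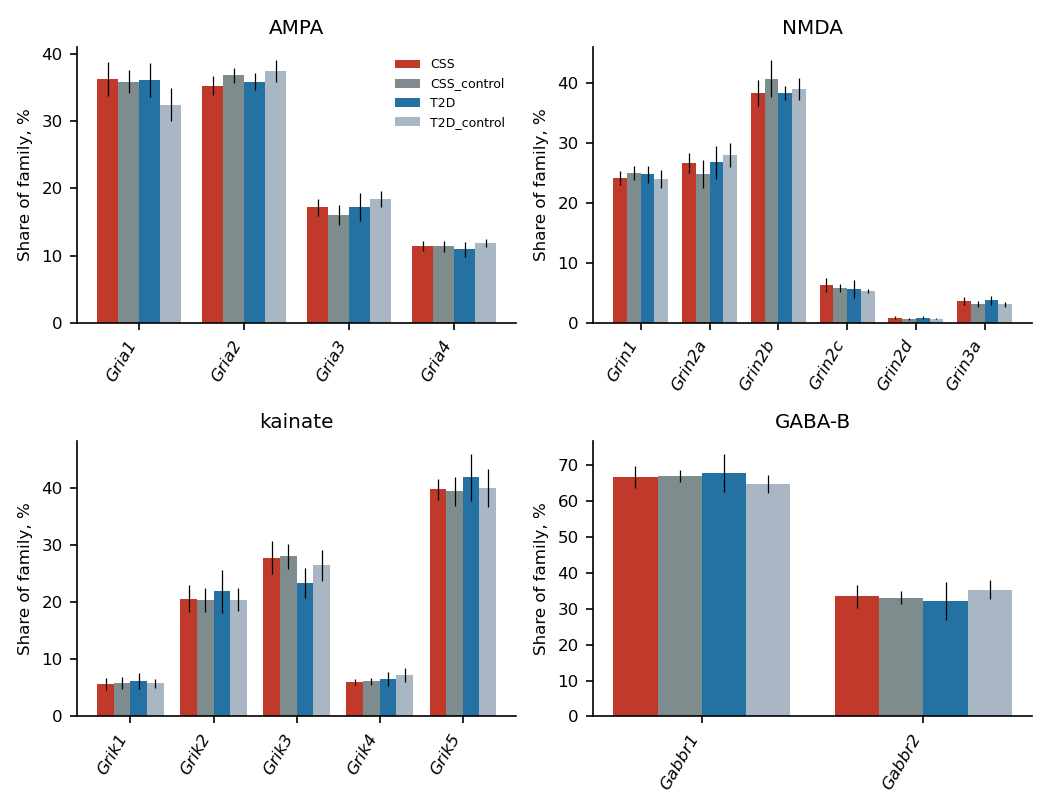
Share of each subunit in the summed CPM per kilobase of merged exons of its family, in percent, for AMPA, NMDA, kainate and GABA-B receptors, as group means with the SD between mice, for CSS, CSS control, T2D and T2D control cortex. Gabbr1 made up 64.7% to 67.8% of the GABA-B sum in the 4 groups.

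The first comparison asked which genes differed between CSS and CSS control cortex. None of the 40 members passed an adjusted p of 0.05 in edgeR's quasi-likelihood test with Benjamini-Hochberg adjustment over 15097 genes, where 4.52% of all genes passed. At an unadjusted p under 0.05, 3 members (7.5%) stood out, Grin3a with a higher and Gabra5 and Gria2 with a lower mean in CSS cortex, against 21.5% of all genes. DESeq2 called 1 member, Gria2, where it called 8.7% of all genes, and limma voom called none. The median size of the log2 fold change was 0.052 over the members and 0.11 over all genes tested, and 21 members had a positive and 19 a negative value. CSS and CSS control mice overlapped in every member, while 0.609% of all genes had groups without overlap.

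Among AMPA subunits, Gria2 had 1056 to 1130 CPM (median 1114) in CSS cortex, against 1110 to 1251 CPM (median 1201) in CSS control cortex. All 8 CSS mice were below the CSS control mean, and 3 control mice lay within the CSS range. The log2 fold change was -0.10 ± 0.04 (SE; 95% interval -0.18 to -0.018), with an unadjusted p of 0.0198 and an adjusted p of 0.145 in edgeR, while DESeq2 gave an adjusted p of 0.0363. The size depended on the title code: Gria2 had -0.15 against C1 controls alone (adjusted p = 0.0540), -0.052 against the other controls (adjusted p = 0.662) and -0.060 with the code as a block (adjusted p = 0.648). Over all alternatives its adjusted p ran from 0.0363 to 0.662. Gria1, the gene of the GluA1 subunit that moves into synapses with activity, had 401 to 530 CPM (median 431) in CSS cortex and 411 to 520 CPM (median 441) in CSS control cortex. These ranges overlapped nearly whole, with a log2 fold change of -0.023 (95% interval -0.14 to 0.097). Gria3 and Gria4 had log2 fold changes of 0.063 and -0.033.

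Among NMDA subunits, Grin3a, whose GluN3A subunit lowers calcium entry, had 39.2 to 72.4 CPM (median 51.8) in CSS cortex and 35.3 to 53.4 CPM (median 46.0) in CSS control cortex. The groups overlapped broadly, and 6 of 8 CSS mice were above the CSS control mean. Its log2 fold change was 0.22 ± 0.10 (SE), with an unadjusted p of 0.0442 and an adjusted p of 0.218, and 0.14 with the title code as a block. Leaving out each library in turn gave 0.13 to 0.26. The highest value, 72.4 CPM, was in CSS mouse 5, and the other CSS mice had 39.2 to 56.1 CPM. The obligatory subunit gene Grin1 had 256 to 314 CPM (median 273) in CSS cortex and 259 to 328 CPM (median 285) in CSS control cortex. Grin2a had 459 to 712 CPM (median 581) in CSS cortex and 434 to 596 CPM (median 530) in CSS control cortex. Grin2b had 992 to 1380 CPM (median 1065) in CSS cortex and 1046 to 1343 CPM (median 1203) in CSS control cortex. The groups overlapped in all 3 genes, with log2 fold changes of -0.042, 0.12 and -0.076. For Grin2d, at a very low level, the log2 fold change was 0.31 (unadjusted p = 0.0806).

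The kainate subunit genes, whose receptors tune transmitter release, all had small positive log2 fold changes in CSS cortex, from 0.036 to 0.073. Grik5, an auxiliary kainate subunit gene, had the smallest p among them, with 98.7 to 147 CPM (median 106) in CSS cortex and 86.8 to 125 CPM (median 105) in CSS control cortex. The groups overlapped, with an unadjusted p of 0.364. Of the delta subunit genes, Grid1 had a log2 fold change of 0.038.

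Among metabotropic glutamate receptors, Grm5, a receptor that releases intracellular calcium, had 409 to 476 CPM (median 458) in CSS cortex and 406 to 516 CPM (median 455) in CSS control cortex. The groups overlapped, with a log2 fold change of -0.016. Grm3, a receptor that lowers cyclic AMP and is also found on astrocytes, had 122 to 152 CPM (median 132.8) in CSS cortex and 124 to 155 CPM (median 136) in CSS control cortex. Its log2 fold change of -0.028 (unadjusted p = 0.616) stood beside higher summed astrocyte markers, a sum made up mostly of Slc1a2, in the same CSS libraries. Grm7, a presynaptic receptor, had 105 to 126 CPM (median 115) in CSS cortex and 91.3 to 119 CPM (median 110) in CSS control cortex, with overlap and a log2 fold change of 0.082 (unadjusted p = 0.177).

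Among GABA-A subunits, 4 members had positive and 9 negative log2 fold changes in CSS. Gabra5, whose alpha5 subunit is found largely outside synapses, had 36.2 to 47.3 CPM (median 41.3) in CSS cortex and 42.3 to 52.0 CPM (median 45.5) in CSS control cortex. The groups overlapped, and 7 of 8 CSS mice were below the CSS control mean. Its log2 fold change was -0.17 ± 0.06 (SE; 95% interval -0.30 to -0.038), with an unadjusted p of 0.0142 and an adjusted p of 0.124. Leaving out each library in turn gave -0.20 to -0.15, the other settings gave -0.22 to -0.17, and the adjusted p ran from 0.0712 to 0.410. The opposite-strand gene Gm9962 covers 4.98% of the exon bases of Gabra5.

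Gabrb2, whose beta subunit is a main part of synaptic GABA-A receptors, had 198 to 238 CPM (median 218) in CSS cortex and 200 to 236 CPM (median 215) in CSS control cortex. The groups overlapped, and the log2 fold change was 0.017. Of the GABA-B genes, Gabbr1 had 664 to 735 CPM (median 704) in CSS cortex and 677 to 768 CPM (median 715) in CSS control cortex. They overlapped, with a log2 fold change of -0.038 (95% interval -0.12 to 0.042), and Gabbr2, the subunit that couples to G proteins, had -0.013.

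**Figure D3:**
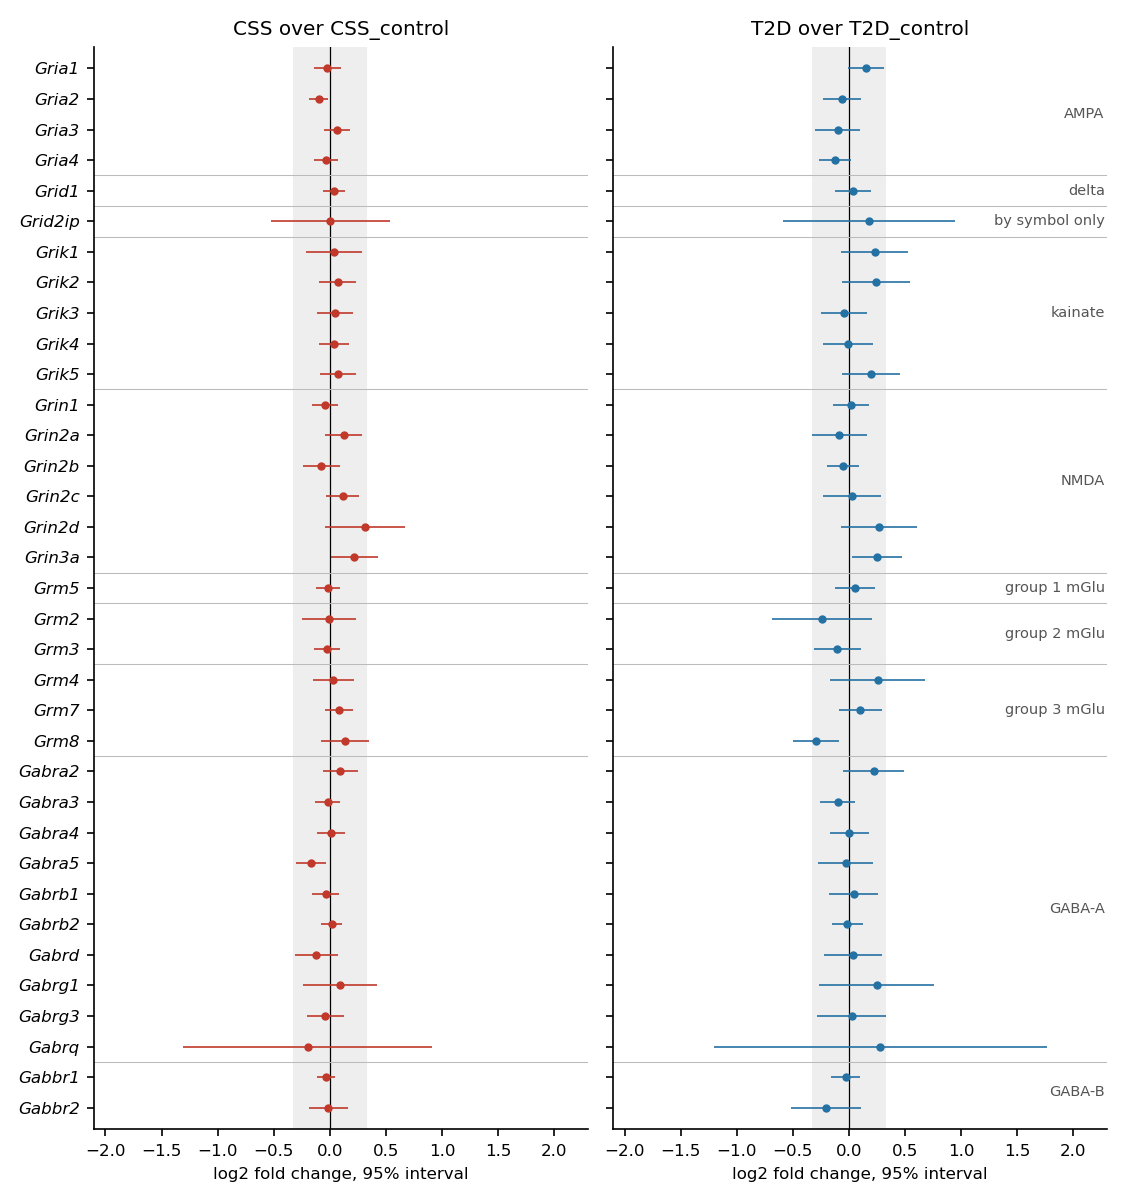
Log2 fold change of 35 of the 40 receptor genes with its 95% interval from edgeR, for CSS over CSS control and for T2D over T2D control, grouped by receptor class; the grey band spans 0.32 either side of 0. None of the 40 genes passed an adjusted p of 0.05 in either comparison, and Gabrq had the widest intervals.

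The second comparison set T2D against T2D control cortex. None of the 40 members passed an adjusted p of 0.05 in edgeR, and neither did any of 15054 genes (0%). At an unadjusted p under 0.05, edgeR gave 2 members (5%), against 5.84% of all genes. DESeq2 and limma voom called no member, and DESeq2 called 4 of all genes (0.0266%). The median size of the log2 fold change was 0.10 over the members and 0.093 over all genes, with 23 positive and 17 negative members. T2D and T2D control mice overlapped in every member, while 0.146% of all genes had groups without overlap.

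The smallest p among the members belonged to Grm8, a presynaptic receptor that lowers transmitter release. It had 28.1 to 39.5 CPM (median 35.4) in T2D cortex and 35.9 to 45.5 CPM (median 42.2) in T2D control cortex. All 6 T2D mice were below the T2D control mean, and the ranges overlapped between 35.9 and 39.5 CPM. The log2 fold change was -0.29 ± 0.10 (SE; 95% interval -0.50 to -0.088), with an unadjusted p of 0.00809 and an adjusted p of 0.825. With the mean log2 CPM of striatal and of thalamic markers as covariates it was -0.19. In the CSS cohort Grm8 had 31.2 to 43.9 CPM (median 35.0) in CSS cortex and 23.3 to 43.2 CPM (median 32.1) in CSS control cortex, with a log2 fold change of 0.13 (unadjusted p = 0.209).

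Grin3a had 42.0 to 59.5 CPM (median 55.7) in T2D cortex and 39.4 to 51.2 CPM (median 42.2) in T2D control cortex. The groups overlapped, and 4 of 6 T2D mice were above the T2D control mean. Its log2 fold change was 0.25 ± 0.10 (SE), with an unadjusted p of 0.0295 and an adjusted p of 0.825, and 0.062 with the regional markers as covariates. Gria1 had 359 to 479 CPM (median 448) in T2D cortex and 366 to 435 CPM (median 386) in T2D control cortex. They overlapped, with a log2 fold change of 0.15 ± 0.07 (SE; unadjusted p = 0.0602), and 0.015 with the regional markers.

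The members of smallest p in the remaining classes differed less clearly in T2D. Gabra2, a GABA-A alpha subunit gene, had 46.7 to 87.3 CPM (median 77.0) in T2D cortex and 55.2 to 73.4 CPM (median 63.6) in T2D control cortex. Grik2, a main kainate channel subunit gene, had 94.9 to 183.7 CPM (median 169) in T2D cortex and 113 to 150 CPM (median 131.9) in T2D control cortex. In both genes the T2D range enclosed the control range, with log2 fold changes of 0.22 and 0.24 (unadjusted p of 0.101 and 0.107). With the regional markers as covariates Gabra2 had 0.039 and Grik2 had -0.048. Gabbr2 had 163 to 380 CPM (median 276) in T2D cortex and 286 to 356 CPM (median 324) in T2D control cortex. Its T2D range again enclosed the control range (log2 fold change -0.20, unadjusted p = 0.184), and it had 0.014 with the regional markers. Leaving out T2D mouse 3 gave -0.089 for Gabbr2, and leaving out T2D mouse 1 gave -0.32. Grm2, an autoreceptor gene, had 12.9 to 36.6 CPM (median 20.0) in T2D cortex and 20.7 to 32.8 CPM (median 25.7) in T2D control cortex. Its groups overlapped (log2 fold change -0.24, unadjusted p = 0.269), with -0.12 without T2D mouse 3 and -0.44 without T2D mouse 1. Grid1 had 73.8 to 87.6 CPM (median 85.9) in T2D cortex and 75.3 to 98.2 CPM (median 79.0) in T2D control cortex, with overlap and a log2 fold change of 0.040.

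The genes of the main channels stayed within overlapping ranges in T2D. Gria2 had 938 to 1287 CPM (median 1130) in T2D cortex and 1041 to 1233 CPM (median 1198) in T2D control cortex. Grin1 had 226 to 291 CPM (median 282) in T2D cortex and 239 to 295 CPM (median 273) in T2D control cortex. Their log2 fold changes were -0.061 (95% interval -0.23 to 0.11) and 0.019 (-0.14 to 0.18). Grin2a had 417 to 663 CPM (median 556) in T2D cortex and 518 to 704 CPM (median 560) in T2D control cortex. Grin2b had 947 to 1164 CPM (median 1111) in T2D cortex and 1053 to 1211 CPM (median 1128) in T2D control cortex. These NMDA subunit genes had log2 fold changes of -0.086 and -0.053.

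The inhibitory receptor genes and Grm5 showed the same overlap in T2D. Gabrb2 had 191 to 225 CPM (median 219) in T2D cortex and 197 to 229 CPM (median 213) in T2D control cortex. Its log2 fold change was -0.015. Gabbr1 had 610 to 713 CPM (median 674) in T2D cortex and 646 to 712 CPM (median 679) in T2D control cortex. Its log2 fold change was -0.029. Grm5 had 385 to 537 CPM (median 448) in T2D cortex and 401 to 483 CPM (median 433) in T2D control cortex, a log2 fold change of 0.056.

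**Figure D4:**
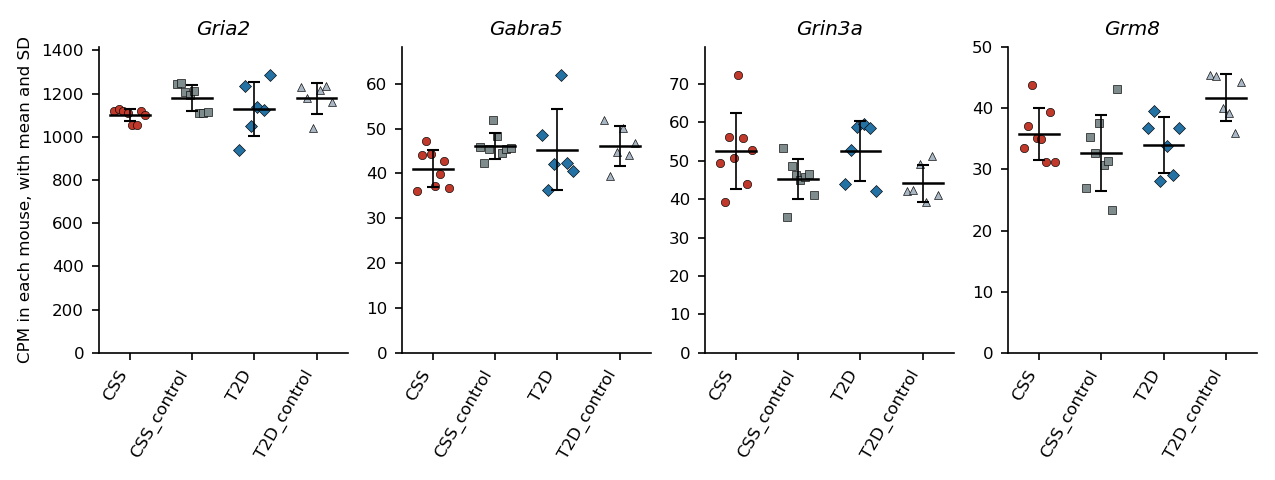
CPM of Gria2, Gabra5, Grin3a and Grm8 in each mouse (points), with group means (lines) and SD (bars), ordered CSS, CSS control, T2D, T2D control. For Gria2, 3 CSS control mice lay within the range of the CSS mice, and for Grm8 the T2D and T2D control ranges overlapped between 35.9 and 39.5 CPM.

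The third comparison tested whether the change in CSS differed from the change in T2D, in 1 model over both cohorts with separate controls. None of the 40 members passed an adjusted p of 0.05 in edgeR, where 0.0806% of 14888 genes did (0.047% with a positive and 0.0336% with a negative difference). DESeq2, which called 0.873% of all genes, and limma voom called no member either. At an unadjusted p under 0.05 there were 2 members (5%), against 12.4% of all genes. Grm8 had a difference of log2 fold changes, CSS minus T2D, of 0.42 ± 0.15 (SE; 95% interval 0.11 to 0.72; unadjusted p = 0.00860, adjusted p = 0.251). It was singled out here after its values were seen. For Gria2 the difference was -0.046 (95% interval -0.21 to 0.11) and for Gabra5 -0.15 (-0.41 to 0.11), so the changes of these genes in CSS were not shown to differ from those in T2D. Grin3a, with positive values in both cohorts, had a difference of -0.039 (95% interval -0.35 to 0.27).

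The 95% intervals limit how large a difference these libraries leave room for, gene by gene. In CSS the interval lay within 0.32 either way on the log2 scale for 34 of the 40 members. The 6 others were Gabrg1, Gabrq, Grid2ip, Grin2d, Grin3a and Grm8. In T2D it lay within 0.32 for 22 members and within 1.5-fold for 34, with Gabrg1, Gabrq, Grid2ip, Grin2d, Grm2 and Grm4 outside. Only Gabrq had an interval reaching beyond 2-fold in CSS or in T2D. Just 6 members in CSS and 0 in T2D had intervals within 1.1-fold. For most members the intervals thus leave room for a difference of 1.1-fold or more at this number of mice and depth. The SD of log2 CPM between mice of a group had a median of 0.14 over the members and 0.18 over all genes in the CSS cohort, and of 0.19 and 0.21 in the T2D cohort. It was lowest for Gabbr1 (0.054 in the CSS cohort, 0.081 in the T2D cohort).

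Some GABA-A subunit genes sit in clusters (GRCm38, GENCODE M21), a position that the selection did not use, and 2 of the 4 clusters are given in full here. Gabrg1, Gabra2, Gabra4 and Gabrb1 lie within 1.40 Mb at chr5:70751047-72149037, with log2 fold changes of 0.092, 0.093, 0.011 and -0.037 in CSS and of 0.25, 0.22, 0.0035 and 0.042 in T2D. Gabra3 and Gabrq lie within 0.410 Mb at chrX:72432681-72842602, with values of -0.021 and -0.20 in CSS and of -0.10 and 0.28 in T2D. In the cluster on chromosome 7, Gabrg3 had -0.042 in CSS and 0.024 in T2D, and Gabra5 had -0.17 in CSS and -0.027 in T2D. None of these genes passed the adjusted threshold.

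Genes that serve these receptors were followed in 7 lists, picked with earlier results of these data known. Counts and medians of a list beside those of all genes are therefore descriptive and not a test of the list. Of 16 genes for glutamate synthesis, release and uptake, 4 rose and 0 fell in CSS, where 2.11% of all genes rose and 2.42% fell, and the list's median log2 fold change was 0.15 against 0.0054 over all genes. Slc1a2, the main astrocyte glutamate transporter, had 2768 to 3483 CPM (median 2962) in CSS cortex and 2381 to 2866 CPM (median 2546) in CSS control cortex. Glud1, a mitochondrial glutamate dehydrogenase, had 181.7 to 232 CPM (median 222) in CSS cortex and 167 to 205 CPM (median 186) in CSS control cortex. Both pairs of ranges overlapped, and the log2 fold changes were 0.22 ± 0.06 (SE; adjusted p = 0.0393) and 0.20 ± 0.05 (SE; adjusted p = 0.0380). Slc7a11, a cystine and glutamate exchanger found on astrocytes, had 72.2 to 122 CPM (median 107) in CSS cortex and 63.5 to 99.6 CPM (median 81.9) in CSS control cortex. These ranges overlapped too, with a log2 fold change of 0.40 ± 0.10 (SE; adjusted p = 0.0312). Summed astrocyte markers were higher in the same CSS libraries (2 of 10 called), but that sum is not separate from the Slc1a2 result. The 10 markers include Slc1a2 and Slc1a3 of this glutamate list. Slc1a2 made up 3043 of a mean sum of 4625 CPM in CSS cortex. The part of astrocytes in these changes was not tested.

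Of 18 AMPA receptor auxiliary genes, 0 rose and 1 fell in CSS, where 2.11% of all genes rose and 2.42% fell. Cacng7, which encodes an AMPA receptor auxiliary subunit, had 43.4 to 54.6 CPM (median 49.3) in CSS cortex and 52.1 to 70.7 CPM (median 60.2) in CSS control cortex. The ranges overlapped slightly, and the log2 fold change was -0.28 ± 0.06 (SE; adjusted p = 0.0192). Of 15 partners of GABA-A receptors at the synapse, 0 rose and 1 fell. At an unadjusted p under 0.05 in edgeR, 3 of these partners had higher and 3 had lower means, where 21.5% of all genes had such a p. Gabarap, a GABA-A receptor binding protein also active in autophagy, had 61.8 to 74.2 CPM (median 69.0) in CSS cortex and 73.6 to 81.3 CPM (median 75.4) in CSS control cortex. Those ranges met only at their ends, with a log2 fold change of -0.16 ± 0.04 (SE; adjusted p = 0.0433).

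The 5 calls named here rested on individual libraries to differing degrees. Cacng7 kept its call in all 16 fits that left out 1 library. Slc7a11 kept it in 10 of 16 and lost it without CSS mouse 5, 6 or 8 or CSS control mouse 1, 2 or 5. Slc1a2 kept it in 7 of 16, those without CSS mouse 1, 2, 3 or 4 or CSS control mouse 2, 6 or 8. Glud1 kept it in 4 of 16, those without CSS mouse 1, 2 or 7 or CSS control mouse 6. Gabarap kept it in 3 of 16, those without CSS mouse 1 or 2 or CSS control mouse 8. With the title code as a block none of the 5 passed, with adjusted p-values of 0.251 for Cacng7, 0.327 for Gabarap, 0.412 for Slc1a2, 0.469 for Glud1 and 0.502 for Slc7a11. They also missed the threshold with regional markers as covariates and against the controls whose code was not C1.

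No gene of the other 4 lists passed in CSS by edgeR. The 5 partners of kainate and NMDA receptors, the 4 group 1 scaffolds and the 10 genes for GABA synthesis, release and uptake had unadjusted p-values under 0.05 in 1, 1 and 3 genes, all with higher means, and the 6 GABA-B auxiliary genes in none, where 21.5% of all genes had such a p. The log2 fold changes were 0.15 for Lrrtm1, a synapse organiser (adjusted p = 0.0895), 0.34 for Homer1, a scaffold of group 1 receptors (adjusted p = 0.0782), and 0.62 for Slc6a13, a GABA transporter (adjusted p = 0.0688). Summed meningeal fibroblast markers (these cells also express Slc6a13) were 266 to 549 CPM in CSS cortex and 200.4 to 473 CPM in CSS control cortex (exact permutation test, adjusted p = 0.431), and their part was not tested. DESeq2, which called 8.7% of all genes in CSS, called Lrrtm1, Homer1 and Slc6a13, at adjusted p-values of 0.0381, 0.0333 and 0.0255. Aplp2 had the smallest p of the GABA-B auxiliary list, with -0.081 (adjusted p = 0.313). In T2D none of the 74 genes of the 7 lists passed in edgeR, DESeq2 or limma voom, and 7 had an unadjusted p under 0.05 in edgeR, as did 5.84% of all genes. In 5 of the lists the genes of smallest p were Cacng5 (log2 fold change 0.86), Lrrtm2 (-0.20), Homer1 (-0.48), Trak1 (-0.20) and Kctd12 (0.18), with adjusted p-values from 0.825 to 0.838. Without T2D mouse 3, Cacng5 had 0.38 and Kctd12 had 0.061. In the difference between CSS and T2D, edgeR and limma voom called none of the 74, and 7 had an unadjusted p under 0.05 in edgeR, as did 12.4% of all genes. DESeq2 called 2, among them Homer1, whose difference in edgeR was 0.81 (adjusted p = 0.149).

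How reads were assigned could touch some members. Stretches of 31 bases shared with any other annotated gene made up a median of 0.22% of a member's transcripts and at most 12.1%, in Grin2a. Sharing between members was at most 0.879%, and 21 members shared no such stretch with another member. Opposite-strand genes cover part of the exons of Grin1 (13.5%, Grin1os), Grin2d (9.66%), Grm2 (9.6%) and Grid2ip (9.52%). The kit keeps strand, but whether counting used it is not given in the sources used here, so reads of these genes and of their antisense partners may not be told apart.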

How the data were processed

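The receptor families and gene lists were picked with earlier results of these data known, although members were then found by symbol alone. Estimated counts per gene were deposited in 2 tables, 1 a cohort, made with Salmon 1.1.0 on mm10 per the submitters' processing notes; the summing of transcripts to genes, the use of strand and any filter on low genes are steps not given in the sources used here. Estimated counts were rounded to whole numbers and tested with edgeR 4.0.16 (R 4.3.3; TMM scaling, filterByExpr, robust quasi-likelihood fit, Benjamini-Hochberg adjustment over all genes of a table, threshold 0.05). The filter removed no gene and no member. CPM values use TMM-scaled library sizes within a table, and tables were normalised separately. Intervals of 95% use the fit's moderated degrees of freedom. DESeq2 1.42.0, limma voom 3.58.1 and other designs were alternatives. CSS and T2D were each fitted on their own cohort, and the difference between them over all 28 libraries. Fits were tested on simulated data with 2-fold changes either way and the same dispersion for all genes. Those changes are larger than the members' changes, so that check does not cover small differences. Library-level sums were tested by exact permutation with scipy 1.17.1.

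Genes named with values were, in each receptor class, the member of smallest p in CSS and in T2D, any member past the threshold, and the core members Gria1, Gria2, Grin1, Grin2a, Grin2b, Grm5, Gabrb2 and Gabbr1; in each pathway list, the genes past the threshold or else the one of smallest p. No label says that mice were handled together, and each mouse was taken as an independent unit. The unexplained title code is spread unevenly between CSS and CSS control mice. The main CSS fit left that code out, so its p-values may reflect the code as well as the spread between mice. Mice with the same replicate number were not paired. Values of 5 members and 2 pathway genes are not reported here, although counts and summaries over all members and lists include them.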

Additional observations from a re-analysis of the deposited data

Results flagged for a closer look

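In 19 of the 140 combinations of a member and a group, 1 library lay apart from the others by Dixon's criterion, which chance gives in about 1 in 20 groups (5%). No cause was tested. In CSS cortex, mouse 5 stood apart in Gria1 (530 CPM, others 401 to 453), Grin2d (11.6 CPM, others 4.35 to 7.66) and Grik5 (147 CPM, others 98.7 to 110). Grik5 had the smallest p of the kainate class in CSS, and its log2 fold change was -0.0028 without that mouse. CSS mouse 2 stood apart in Grm5 (409 CPM, others 446 to 476).

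Among CSS controls, mouse 1 stood apart in Gria1 (520.5 CPM, others 411 to 456), Gabrg3 (95.6 CPM, others 67.5 to 79.2) and Gabrq (14.5 CPM, others 1.11 to 7.41). Mouse 2 did so in Gabrg1 (24.5 CPM, others 37.8 to 49.3) and mouse 4 in Gabra3 (92.3 CPM, others 97.1 to 100.8).

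In T2D cortex, mouse 1 stood apart in Gria1 (359 CPM, others 438 to 479) and Gabra2 (46.7 CPM, others 74.2 to 87.3). Mouse 3 did so in Grin1 (226 CPM, others 280.4 to 291). Mouse 4 did so in Grid2ip (5.43 CPM, others 1.71 to 2.70), Grid1 (73.8 CPM, others 83.2 to 87.6) and Grik3 (86.5 CPM, others 109.6 to 122). Among T2D controls, mouse 3 stood apart in Gria2 (1041 CPM, others 1163 to 1233) and Grid1 (98.2 CPM, others 75.3 to 81.8), mouse 2 in Gria4 (166 CPM, others 144 to 152) and mouse 4 in Grik4 (23.5 CPM, others 19.6 to 21.0).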

How the results depend on the processing

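Of 83 alternative fits, 1 called a member: DESeq2 called 1 in CSS (Gria2). The fits without a filter are among the 83 but repeat the main fits, because the filter removed no gene. In CSS, the 683 genes called became 1313 with DESeq2, 1130 against C1 controls alone, 83 with striatal and thalamic markers as covariates, 2 with the title code as a block and 0 against the other controls; leaving out each library gave 222 to 794 genes. In T2D DESeq2 called 4 genes and leaving out a library 0 to 0. For the difference between CSS and T2D (12 genes), DESeq2 gave 130, a mean of at least 5 CPM 24, and limma voom, RIN (the RNA integrity number) and the regional markers 0; leaving out a library gave 0 to 32. Members called stayed at 0 in every fit that left out a library. Replicate numbers did not pair the mice (correlations of deviations over 0.1 in 3 of 8 CSS pairs and 1 of 6 T2D pairs; 2 and 0 libraries correlated best with their own number). With the replicate block, 478 genes in CSS, 0 in T2D and 32 in the difference were called, and 0 members.

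Of 271 named-member values under the other settings, 251 kept their direction and side of the threshold, 19 reversed in sign and 1 gained a call. The 251 include the values of the fits without a filter, which could not differ from the main ones. In CSS, the title code block reversed Gria1 (0.0094), Grin2b (0.12) and Grm3 (0.013). C1 controls alone reversed Grm7 (-0.014). The other controls reversed Gabrb2 (-0.013), Gria1 (0.033), Grin2b (0.053) and Grm5 (0.057). Regional markers reversed Grm3 (0.019) and Grm5 (0.0058). In T2D, regional markers reversed Gabbr2 (0.014), Gabrb2 (0.037), Grid1 (-0.036), Grik2 (-0.048), Grin2a (0.082) and Grm5 (-0.038), and RIN reversed Gabrb2 (0.021), Grid1 (-0.018) and Grin1 (-0.038). The cause was not tested. Leaving out a library reversed 9 of 416 values: the ranges were -0.0071 to 0.037 for Gabrb2, -0.071 to 0.011 for Gria1, -0.0028 to 0.11 for Grik5 and -0.040 to 0.0094 for Grm5 in CSS, and -0.037 to 0.015 for Gabrb2 and -0.015 to 0.070 for Grin1 in T2D. The alternatives for the pathway genes were chosen after seeing the data.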
